A study of Homo sapiens with 21 samples.

Results

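HNRNPK bound 10355 intronic sites that were found in the nuclei of both cell lines and in the cytoplasm of neither. They were chosen by overlap alone. Each was a cluster of reads in the parental nuclear library that the authors had assigned to an intron, that shared at least 1 nt, in the same orientation, with a cluster of the *KRT19* KO nuclear library, and that overlapped no cluster of either cytoplasmic library. They made up 7.68% (95% Wilson interval 7.54 to 7.82%) of the 134883 intronic clusters of the parental nuclear library, which held 200387 clusters in all, and lay in 4258 genes. MDA-MB-231, a cell line of triple-negative breast cancer, was used either as parental cells or with *KRT19*, the gene of keratin 19, knocked out by CRISPR/Cas9. PAR-CLIP was done on the nuclear and the cytoplasmic fraction of each line with an antibody labelled anti-HNRNPK/J, after 100 μM 4-thiouridine (4SU) for 16 h and irradiation with long-wave ultraviolet light, and gave 1 library per condition. There was thus no replicate of any condition. No difference below has a replicate check, no test was run, and intervals cover counting error only, since copies of a molecule and sites of 1 gene are not independent. Whether the *KRT19* KO cells came from a single clone is not given in the sources used here. RNA-seq, on 17 further samples, was not used here.

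HNRNPK is an RNA-binding protein that moves between nucleus and cytoplasm. Its KH domains recognise single-stranded RNA rich in cytosine, and in the nucleus it is known to take part in transcription, in the choice of splice sites and in the nuclear retention of RNAs that hold C-rich stretches. An intron ends in a polypyrimidine tract and the 3′ splice site, where U2AF is known to bind and where C-rich sequence gives KH proteins a possible contact. In PAR-CLIP, sequencing reads crosslinked 4SU as a C where the gene has T, so a cluster of reads with T-to-C changes marks a contact. RNase T1 cuts RNA after G, which leaves few G inside the clusters of any protein.

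Sequences are given first for the sites with the most reads. The 10 below had the highest sum of RPM (reads scaled to the total of cluster reads of the library) over both nuclear libraries among sites of 30 nt or less, and are given 5′ to 3′ on the RNA strand as the deposited cluster sequence, with T for U and with runs of 3 or more C in capitals.
EIF4A1, chr17:7480312-7480341, plus strand: atatatctctCCCacatttCCCtaatcata
GARS, chr7:30667100-30667129, plus strand: atttCCCaaaaaacataaactcttccaaag
IGFBP4, chr17:38605519-38605548, plus strand: gtaaacatCCCaaatatccattaataatcc
PCBP2, chr12:53859009-53859038, plus strand: CCCttttcctttcctccttttCCCtaCCCC
ANKRD17, chr4:74112048-74112073, minus strand: tatctctCCCtcttttcaCCCaaCCC
BCL2L1, chr20:30253931-30253958, minus strand: CCCCtttCCCCaCCCacctacatcactc
EFNA5, chr5:106922798-106922824, minus strand: aattaaCCCacattCCCtaatattCCC
RICTOR, chr5:39029216-39029243, minus strand: catatttttatCCCCttCCCtaaaCCCC
SMC6, chr2:17875475-17875503, minus strand: caatctcttttaattaCCCCtCCCatCCC
RTN4, chr2:55256866-55256894, minus strand: ccttttaaacacacatcataaatttCCCg
Each of the 10 held at least 1 run of 3 or more C. Over all members the share with such a run was 53.5% (52.5 to 54.4%), so these deep sites do not stand for the typical member. The sites in *PCBP2*, *ANKRD17*, *BCL2L1*, *EFNA5*, *RICTOR* and *SMC6* held 3 such runs, separated by short stretches of pyrimidines and A. Coordinates are of hg19 (GRCh37), and the sequences of all 10354 sites on that reference were equal to it. Of the 10355 sites, 7 were on contigs rather than chromosomes, and the parental cytoplasmic file held no clusters on contigs, so the absence of those 7 from that library is not a measurement.

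*KRT19* had no cluster in either nucleus and 1 cluster in each cytoplasm, of 7 reads in parental and 5 in *KRT19* KO cells, too few to check the genotype. Intronic and nuclear RNA was also bound in the cytoplasmic libraries. Intronic clusters held 67.0% and 59.7% of cluster reads in the parental and *KRT19* KO nuclei, but also 42.3% and 23.0% in the cytoplasms. *NEAT1*, a nuclear long noncoding RNA, had 789 and 1092 RPM in the nuclei against 226.4 and 204 in the cytoplasms. *MALAT1*, another nuclear RNA, had 888 and 548 against 1229 and 842 RPM, so it was not lower in the cytoplasm, and the part of the fractionation in what follows was not tested. Mitochondrial RNA held 0.918%, 3.72%, 0.708% and 4.64% of the reads in the parental nucleus, *KRT19* KO nucleus, parental cytoplasm and *KRT19* KO cytoplasm. Of the basal-type markers, *VIM*, *CD44*, *CAV1*, *MSN* and *AXL* had clusters in all 4 libraries. *PGR* had none, but *ESR1* also had clusters in all 4, between 2 and 10, beside 6 to 10 for *VIM*. These counts are therefore no check of the cell type. A site without a cytoplasmic cluster is one where none was called there at the minimum of 5 reads, which does not show that the RNA or its binding was absent.

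Finding a site in both nuclei alone was tied to its depth. Of the 26842 intronic sites in both nuclei, 38.6% (38.0 to 39.2%) had no cytoplasmic cluster, close to the 37.8% of all 37894 clusters in both nuclei, whatever their annotation. The overlap rule without the restriction to introns was met by 14316 clusters, 7.14% of all parental nuclear clusters, and 72.3% of these were intronic, beside 67.3% of all parental nuclear clusters. The share without a cytoplasmic cluster fell from 57.9% (56.6 to 59.2%) of sites with 5 to 9 parental nuclear reads to 46.8% at 10 to 19, 28.9% at 20 to 49, 15.5% at 50 to 99 and 10.1% (8.43 to 11.9%) at 100 or more. The members had 5 to 653 reads, with a median of 13 and quartiles of 8 and 22, and 22.3% of them rested on 1 unique read. Intronic sites in all 4 libraries, 6570 in number, had a median of 30 reads, and the 81817 found in the parental nucleus alone had a median of 9. The 10209 intronic sites of both cytoplasms that were in neither nucleus had the same median and quartiles as the members, 13, 8 and 22. That makes them the closest comparison in raw reads, but not a matched one. Their reads came from the parental cytoplasmic library, which had 5551612 cluster reads beside 3537577 in the parental nuclear one. Only 9.97% of them rested on 1 unique read.

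The boundary of the rule was thin. There were 15 members that overlapped the *KRT19* KO nuclear cluster by a single nt and 12 by 2 nt, with a median of 8 parental reads in each case. Just outside, 185 intronic clusters lay within 5 nt of a *KRT19* KO nuclear cluster without overlap and had a median of 10 reads, and 32 that were in both nuclei overlapped a cytoplasmic cluster by at most 5 nt. Of the members, 53 had a cytoplasmic cluster within 5 nt, 13.3% (12.70 to 14.01%) within 100 nt, 59.6% within 1000 nt and 98.1% within 10000 nt. Intronic sites of the parental nucleus alone had one within 100, 1000 and 10000 nt in 9.66%, 50.8% and 94.6%, so such closeness was common to nuclear intronic sites.

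Most genes of these sites were bound in the cytoplasm too, at other positions. Of the 4258 genes, 4205 (98.8%) had a cytoplasmic cluster and 4152 (97.5%) an intronic one, and 57 sites were in genes with none. These shares were not computed for all 10180 genes with an intronic parental nuclear cluster. They are therefore not read as a result about the members.

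The sites were rich in C and T. C made up 30.5% of their bases, T 35.5%, A 29.1% and G 4.84%, over a median length of 28 nt, and the median longest run of pyrimidines was 7 nt. Their C content was close to that of the sites in all 4 libraries (31.4%) and above that of sites in both cytoplasms only (24.3%), while sites of the parental nucleus alone had 26.3%. These differences moved with the library. All intronic clusters held 27.4% C in the parental nuclear library, 28.5% in the *KRT19* KO nuclear library, 25.9% in the parental cytoplasmic and 25.95% in the *KRT19* KO cytoplasmic one. How much of the difference between nuclear and cytoplasmic sites belongs to the fraction and how much to the library cannot be told apart with 1 library each.

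Around the mode, the position where a cluster's T-to-C signal is highest, C peaked downstream. At 3 nt past the mode 37.0% of the sites had C, beside a mean of 21.6% at 26 to 30 nt from it. In sites of all 4 libraries the peak was at the same position and reached 43.9%, and in sites of both cytoplasms only it reached 33.7%. At the mode itself 43.7% of the sites had T, 27.2% C and 22.1% A. The mode is therefore often not a converted T, and distances from it are not distances from the crosslinked base. G fell from a mean of 18.0% at 26 to 30 nt from the mode to 7.38% within 10 nt.

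**Figure D1:**
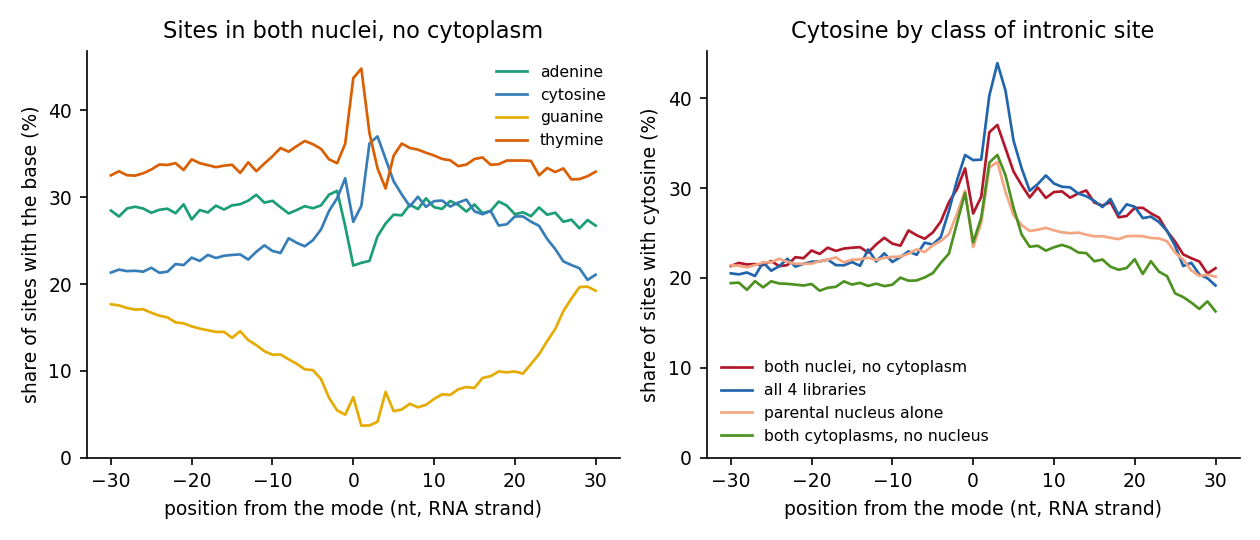
Base composition around the mode position of intronic HNRNPK sites, from 30 nt upstream to 30 nt downstream on the RNA strand, as the percentage of sites with each base in GRCh37. The left panel shows the 4 bases in the sites of both nuclei without a cytoplasmic cluster, and the right panel shows cytosine in 4 classes of site; cytosine peaks 3 nt after the mode in each class and is highest in sites of all 4 libraries.

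The word TCCC, the core of a C-rich KH contact, was in 4220 of the 10355 sites, a share of 40.8% (39.8 to 41.7%). In genome sequence of the same length 100 nt to either side it was in 11.3% (10.8 to 11.7%), so the sites held it 3.62 times as often as their flanks. For TCTT, a pyrimidine word without a run of C, that ratio was 1.52. Clusters need a T and hold few G after RNase T1, while flanks are plain genome sequence. The part of this in the ratios was not tested. The share was 55.1% (53.9 to 56.3%) in sites of all 4 libraries, and members minus these sites gave -14.3 percentage points (-15.9 to -12.8). It was 27.9% (27.1 to 28.8%) in sites of both cytoplasms only and 27.9% (27.6 to 28.2%) in sites of the parental nucleus alone, 12.8 points lower than in the members in both cases. The members thus stood between the sites shared by every library and those of both cytoplasms only or of the parental nucleus alone. This place was not particular to them. The share was 44.9% in sites of both nuclei and the *KRT19* KO cytoplasm, and 47.4% in those of both nuclei and the parental cytoplasm. In sites of the parental nucleus and both cytoplasms it was 41.4% (40.2 to 42.6%).

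Longer C-rich words followed the same order. TTCCC was in 20.4% of the members, 28.1% of sites in all 4 libraries, 11.3% of sites in the parental nucleus alone and 13.2% of sites in both cytoplasms only, and TCCCC in 17.2%, 22.1%, 9.60% and 9.78%. The consensus [T/A][T/C/A]CCC was in 42.8% (41.9 to 43.8%) of the members, and in 54.6%, 27.1% and 29.9% of the other classes in the same order. At least 2 separate CCC, which a protein with several KH domains could contact together, were in 22.1% (21.3 to 22.9%) of the members, 26.01% of sites in all 4 libraries and 9.46% (8.91 to 10.0%) of sites in both cytoplasms only. Among all words of 5 nt, TCCCC and TTCCC had the highest log2 ratios of members to their flanks, 2.69 and 2.61. The lowest, -5.22, was that of GTTTG, which holds G. TCTT, a pyrimidine word without a run of C that polypyrimidine tract binding proteins are known to contact, varied less between the classes. It was in 28.6% of the members, 27.6% of sites in all 4 libraries, 24.9% of sites in the parental nucleus alone and 27.1% of sites in both cytoplasms only. GGG was in 6.21% of the members, 2.44% of sites in all 4 libraries, 17.1% of sites in the parental nucleus alone and 3.92% of sites in both cytoplasms only.

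The order was the same in each step of depth. Among sites of 5 to 9 reads, TCCC was in 37.9% (36.3 to 39.5%) of the members, 44.3% (40.6 to 48.1%) of sites in all 4 libraries and 25.6% (24.1 to 27.1%) of sites in both cytoplasms only. Among sites of 50 to 99 reads the shares were 53.7% (49.1 to 58.3%), 62.2% (59.6 to 64.9%) and 37.8% (33.4 to 42.4%). At 100 reads or more they were 69.9% (60.9 to 77.6%) in 113 members and 76.0% (72.6 to 79.1%) in 666 sites of all 4 libraries, whose intervals overlap, and 45.4% (36.3 to 54.8%) in 108 sites of both cytoplasms only. The share rose with reads in each of these classes. The *KRT19* KO clusters that overlap the members were picked by the rule and cover mostly the same bases, so their words are not independent of those above. TCCC was in 38.8% (37.9 to 39.8%) of these clusters, beside 50.5% for sites in all 4 libraries and 27.2% in the *KRT19* KO clusters of sites in both cytoplasms only. The intronic clusters of each whole library lay between 29.8% in the *KRT19* KO cytoplasm and 33.1% in the parental nucleus.

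**Figure D2:**
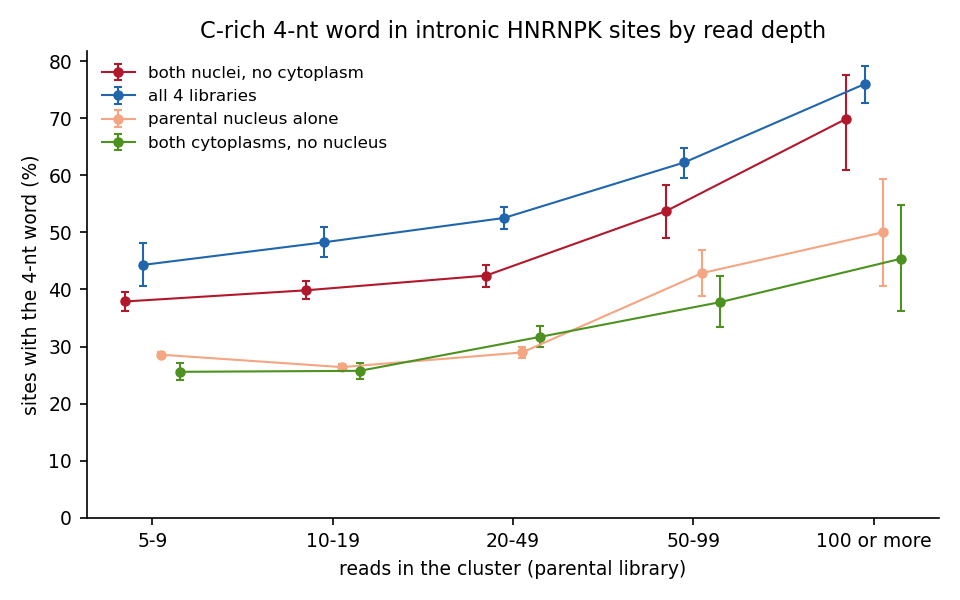
Share of intronic sites with the C-rich 4-nt word described in the text, in percent, by the number of reads in the parental cluster, for 4 classes of site; points are shares and bars 95% Wilson intervals. The sites of both nuclei without a cytoplasmic cluster lie below the sites of all 4 libraries and above the sites of 1 fraction in every step up to 50-99 reads, and with 100 or more reads the intervals of the 2 upper classes overlap.

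The longer words ACCTCCC and GCCTCCC, which occur in the antisense Alu stretch known to hold long RNAs in the nucleus through HNRNPK, were rare. Either was in 123 members, 1.19% (0.997 to 1.42%), against 0.889% (0.770 to 1.03%) of their flanks at 100 nt and 1.54% at 500 nt. The share was 1.52% (1.25 to 1.85%) in sites of all 4 libraries and 1.22% in the parental nucleus alone, differences whose intervals include 0. It was 0.617% (0.483 to 0.789%) in sites of both cytoplasms only, lower by 0.571 points (0.314 to 0.835). The 4 members with these words and the most reads were in *BRE*, *TSC22D2*, *STAT6* and *F2RL1*, with 126, 83, 101 and 94 reads in the parental nucleus and 21, 57, 36 and 23 in that of *KRT19* KO cells. *STAT6*, a transcription factor of cytokine signalling, held its site 35 nt before a 3′ splice site, in a stretch that an exon of another transcript overlaps. The 4 of 30 nt or less with the most reads are shown because they carry the word, given in capitals.
SARNP, chr12:56177365-56177394, minus strand: tctctcccacctcctcccACCTCCCcccag
VAPB, chr20:56990518-56990546, plus strand: cttttttaACCTCCCatttcacattttag
ZNF148, chr3:125069874-125069899, minus strand: ctcctcatttctACCTCCCctcatcc
SIPA1L1, chr14:72064028-72064053, plus strand: tatataACCTCCCctcccatttctct
All 4 held the form ACCTCCC, and they lay between 2720 and 22940 nt before the end of the intron. The middle 20 nt of a site occurred at 1 place in the genome for 84.2% of the members, at 10 or more for 2.797% and at 100 or more for 0.913%, against 86.7%, 1.95% and 0.548% in sites of all 4 libraries and 78.7%, 8.13% and 3.61% in the parental nucleus alone.

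The sites were placed at the ends of introns more often than other intronic sites. Of the 10330 members inside an intron of GENCODE 44, 324 lay wholly within the intron with fewer than 50 nt between the site and the 3′ splice site, a share of 3.14% (2.82 to 3.49%). The share was 1.23% (0.993 to 1.53%) in sites of all 4 libraries, 1.73% (1.65 to 1.82%) in the parental nucleus alone and 0.795% (0.640 to 0.986%) in sites of both cytoplasms only. The members' share was higher by 1.90 points (1.47 to 2.33) than in sites of all 4 libraries and by 2.34 points (1.97 to 2.73) than in sites of both cytoplasms only. The difference was smaller from the parental nucleus alone, 1.40 points (1.07 to 1.77). Sites that were in both nuclei and in 1 cytoplasm gave 1.37% (1.07 to 1.76%) where that was the *KRT19* KO cytoplasm and 1.17% (0.919 to 1.49%) where it was the parental one. Among all intronic clusters of the parental libraries the share was 1.64% in the nucleus and 1.06% in the cytoplasm.

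Most of the 324 sites reached close to the end of the intron. The gap between the downstream edge of the site and the 3′ splice site was under 25 nt for 235 members, 2.27% (2.005 to 2.58%). It was 25 to 49 nt for 89, 0.862% (0.701 to 1.06%). Between 50 and 99 nt the members' share was 1.37% and that of sites in all 4 libraries 0.776%. A total of 100 members, 0.968%, ended at the last nt of the intron. The share was 0.426% in sites of all 4 libraries, 0.482% in the parental nucleus alone and 0.304% in sites of both cytoplasms only. Of all members 46.3% ended in G, after which RNase T1 cuts, and the part of the enzyme in these ends was not tested. At the other end of introns the members' share within 50 nt of the 5′ splice site was 1.48% (1.27 to 1.73%), beside 0.929% (0.724 to 1.19%) in sites of all 4 libraries and 0.951% in sites of both cytoplasms only. The highest step there was 25 to 49 nt into the intron, with 95 members.

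**Figure D3:**
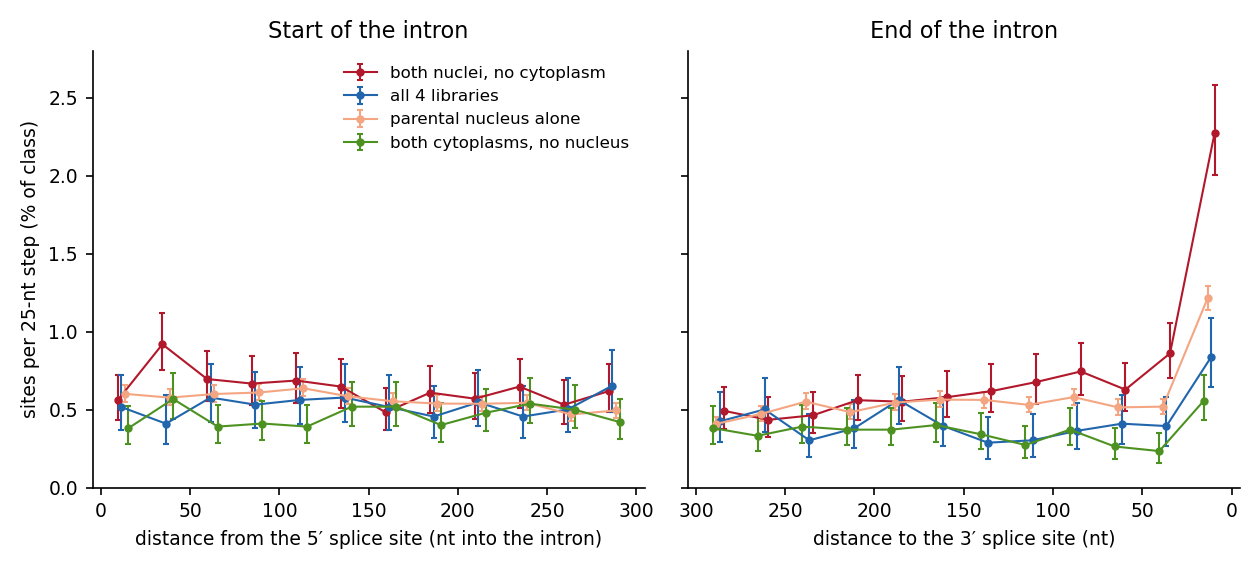
Share of intronic sites in 25-nt steps from the 5′ splice site (left) and towards the 3′ splice site (right), in percent of each of 4 classes, with 95% Wilson intervals as bars. Distances run from the nearest edge of the site. With fewer than 25 nt to the 3′ splice site, the sites of both nuclei without a cytoplasmic cluster reach 2.27%. The parental nucleus alone reaches 1.21%, all 4 libraries 0.837% and both cytoplasms only 0.559%.

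The share near the 3′ splice site was larger among deeper members. It was 2.63% (2.15 to 3.22%) at 5 to 9 reads, 2.84% at 10 to 19, 3.69% at 20 to 49, 4.54% at 50 to 99 and 10.6% (6.18 to 17.6%), or 12 of 113 sites, at 100 or more. The other classes did not go above 2.40% at any depth, and sites of both cytoplasms only had 0 of 440 and 0 of 108 in the upper 2 steps, which allows up to 0.866% and 3.43%. The parental nucleus alone had 2.40% (1.44 to 3.99%) at 50 to 99 reads and 1.94% (0.534 to 6.81%) at 100 or more. These intervals overlap the members' 2.95 to 6.90% and 6.18 to 17.6%. The order of the classes was kept under other choices of introns and sites. With introns of canonical transcripts only, the shares were 2.71% in members, 1.48% in the parental nucleus alone, 0.776% in sites of all 4 libraries and 0.544% in sites of both cytoplasms only. The next choice left out the 565 members that overlap an annotated exon of some transcript, 371 of them an exon of a transcript classed as retained intron. Without such sites the members' share was 2.55%, beside 1.42%, 0.927% and 0.640% in the other classes in the same order. Starting the rule from the *KRT19* KO nuclear clusters gave 3.13% beside 1.25% in sites of all 4 libraries.

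**Figure D4:**
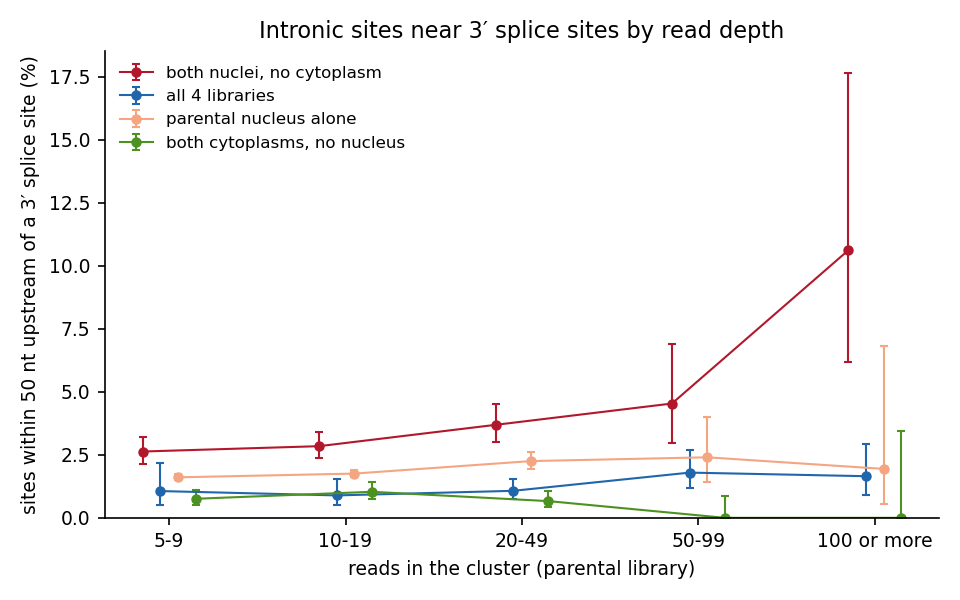
Share of intronic sites with fewer than 50 nt to the 3′ splice site, in percent, by the number of reads in the parental cluster, for 4 classes of site, with 95% Wilson intervals as bars. The sites of both nuclei without a cytoplasmic cluster rise from 2.63% at 5 to 9 reads to 10.6% at 100 or more, while the other classes stay at or below 2.40%. In the steps from 50 reads up, the intervals of the parental nucleus alone overlap those of the sites of both nuclei.

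The 324 sites near the 3′ splice site were in 313 genes. They held 33.5% C and 40.6% T, against 30.5% and 35.4% in the other members, and TCCC was in 52.5% (47.0 to 57.8%) against 40.4% (39.4 to 41.4%). Their introns were shorter, with a median of 1334 nt against 13906 nt. They had a median of 16 parental and 14 *KRT19* KO reads, against 13 and 13. The 4 with the most reads were in *EIF4A1*, *PSMD9*, *BCL2L1* and *HNRNPH1*. *EIF4A1*, an RNA helicase of translation initiation, had 426 parental and 198 *KRT19* KO reads at 32 nt before the end of intron 5, in a stretch that exons of other transcripts also cover. *PSMD9*, an assembly factor of the proteasome, had 372 and 128 reads at 3 nt from the end of intron 4, where the middle of the site has 9 copies in the genome, so that its reads may belong to more than 1 locus. *BCL2L1* encodes Bcl-x, whose alternative 5′ splice sites give a pro- and an anti-apoptotic protein. Its site, printed above with 3 runs of C, had 192 and 81 reads at 41 nt before the end of the last intron, and its mode was at the same nt in both libraries. *HNRNPH1*, a splicing regulator of the hnRNP family, had 189 and 80 reads over the last 45 nt of intron 5, which an exon of another transcript overlaps. At every one of these 4 sites both nuclear libraries had many reads, and the parental library had more. The next sites of 30 nt or less before a 3′ splice site were in *MYO1C*, which encodes a nuclear and membrane myosin, and *CDAN1*.
MYO1C, chr17:1374103-1374130, minus strand: cacattcattcttcttcaccactctcct
CDAN1, chr15:43024626-43024651, minus strand: tctCCCtcctttccacaCCCttcatt
The *MYO1C* site, 21 nt before the end of its intron, was pyrimidine-rich without a run of 3 C and had 61 and 66 reads. The *CDAN1* site, 19 nt before the end, held 2 runs and had 90 and 14 reads.

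The rule required the clusters of both nuclear libraries to overlap, so their shared position is a description. The overlap of the parental and *KRT19* KO cluster had a median of 24 nt, or 88.9% of the parental cluster. The 2 modes were within 2 nt of each other in 24.9% (24.1 to 25.7%) of the sites and at the same nt in 9.31%, with a median distance of 7 nt, beside 29.9% within 2 nt for sites in all 4 libraries. The share within 2 nt did not rise with depth, from 26.2% (24.8 to 27.7%) at 5 to 9 reads to 28.3% (20.8 to 37.2%) at 100 or more. Reads per site in the 2 libraries had a Spearman correlation of 0.27 across the 10355 sites, against 0.43 across the sites of all 4 libraries, a description over sites that share libraries and not over samples. T-to-C reads made up 70.1% of the reads of the sites in the parental nucleus and 75.2% in that of *KRT19* KO cells, beside 72.9% and 76.7% in the whole libraries.

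The *KRT19* KO had no common direction at these sites. The log2 ratio of RPM, *KRT19* KO against parental, had a median of 0.12 with quartiles of -0.70 and 0.86, beside 0.02 over all 37894 clusters in both nuclei. At least 4-fold more reads in the *KRT19* KO nucleus were found at 429 sites, or 4.14%, against 4.93% of all clusters in both nuclei. At least 4-fold fewer were found at 368 sites, or 3.55%, against 4.87%. Both shares were below those of the background, but the minimum of 5 reads limits them. A site with few reads in 1 library cannot have 4-fold fewer in the other and still be called there. The members were shallower, with a median of 13 parental reads beside 18 over all clusters in both nuclei. The lower shares are therefore not read as a result about the members.

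**Figure D5:**
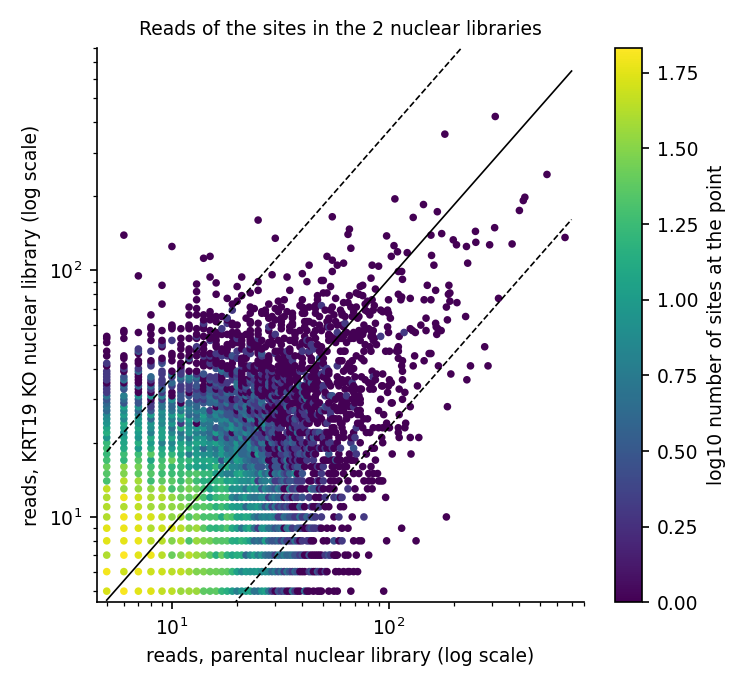
Reads of the 10355 sites in the parental nuclear library (horizontal) and the *KRT19* KO nuclear library (vertical), both on log scales; each point is a pair of read counts, coloured by the log10 number of sites that share it. The solid line marks equal RPM and the dashed lines a 4-fold difference, and 429 sites lie at or above the upper and 368 at or below the lower dashed line.

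Among the 1846 sites with at least 50 reads in both nuclei together, the largest ratios were those in *ELL2*, *DTL* and *AFF4*. *ELL2* and *AFF4* encode subunits of the super elongation complex of RNA polymerase II, and *DTL* a substrate receptor of a ubiquitin ligase. The *ELL2* site had 6 parental and 139 *KRT19* KO reads, a log2 ratio of 4.66 (exact 95% interval of the counts 3.50 to 6.13). The *DTL* site had 7 and 95 reads, log2 3.88 (2.78 to 5.24), and the *AFF4* site 10 and 125, log2 3.76 (2.84 to 4.86). The smallest ratios were in *RNF216*, a ubiquitin ligase, with 95 and 5 reads and a log2 ratio of -4.13 (-5.78 to -2.85), in *USPL1*, with 185 and 10 and -4.09 (-5.17 to -3.18), and in *IGF2BP3*, an RNA-binding protein, with 134 and 8 and -3.94 (-5.19 to -2.93). These sites were picked as extremes of 1 library against 1, and their intervals hold counting error alone. The 3 highest, and the 3 lowest of 30 nt or less, are shown to compare their content of C, with runs of 3 or more C in capitals.
ELL2, chr5:95228960-95228983, minus strand: ttttttccatcaccacataaacag
DTL, chr1:212263095-212263122, plus strand: aactttccaacacatcaatttcatacca
AFF4, chr5:132293743-132293771, minus strand: acgcattccttaatatcatcaatatcaag
KAZN, chr1:15073424-15073453, plus strand: cattaccactatctacttctcatcttCCCa
CRIM1, chr2:36730898-36730925, plus strand: tgtCCCaaattcaCCCttacattatttt
CDK13, chr7:40032861-40032890, plus strand: tCCCCatatCCCatttaatcattctactct
None of the 3 sites with more reads in the *KRT19* KO nucleus had a run of 3 C, and all 3 with fewer had at least 1. The *KAZN*, *CRIM1* and *CDK13* sites had 67, 98 and 69 parental against 5, 8 and 6 *KRT19* KO reads. These 6 were chosen for their ratios, so the contrast is a description of them.

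By reads over both nuclei, the highest sites were in *RBM39*, *FRMD5* and *SRP9*. *RBM39*, a splicing factor, had 539 parental and 245 *KRT19* KO reads at chr20:34327752-34327788, in intron 2, in a stretch that exons of other transcripts cover. *FRMD5* had the most parental reads of any member, 653, against 136 in the *KRT19* KO nucleus, in an intron of 92696 nt at chr15:44445728-44445770. The log2 ratio of the latter was -2.14 (-2.42 to -1.87) and that of *RBM39* -1.02 (-1.24 to -0.80). *SRP9*, a subunit of the signal recognition particle, had 311 and 421 reads at chr1:225976476-225976516. *GARS*, the glycyl-tRNA synthetase (GARS1 in newer annotation), had 182 and 357 reads. *SRP9* and *GARS* were the only 2 of the 10 highest with a higher RPM in the *KRT19* KO nucleus. *HMGA2*, an architectural chromatin protein expressed in many tumours, had 419 and 192 reads at chr12:66277527-66277561. *SOGA2* (MTCL1), *EXT1* and *DDX47* had 402, 309 and 293 parental and 175, 149 and 127 *KRT19* KO reads. *EIF4A1* and *PSMD9* completed the 10. TCCC was in 7 of these 10 sites, in 66 of the 100 and in 554 of the 1000 with the most reads, and 2, 8 and 49 of them lay within 50 nt of a 3′ splice site.

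*PCBP2* encodes a poly(C)-binding protein, a relative of HNRNPK with KH domains of the same kind. Its site, printed above, had 278 parental and 49 *KRT19* KO reads, a log2 ratio of -2.38 (-2.85 to -1.94), in intron 9. The middle 20 nt of that site have 4 copies in the genome and those of the *IGFBP4* site 3, so reads from other copies may be included.

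The sites were spread over many genes. Of the 4258 genes, 2109 (49.5%) had 1 site and 94 (2.21%) had 10 or more, and the 10 genes with the most held 251 sites, or 2.42% of all. The number of sites per gene followed the length of the introns, with a Spearman correlation of 0.50 over 4246 genes, and the number of all intronic clusters of the gene, 0.69 over 10180 genes. The nearest other member was a median of 16172 nt away, and 7.23% of the sites had one within 1000 nt.

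The genes with the most sites were long. *TRIO*, a guanine nucleotide exchange factor, had 35 sites, 13.0% of its 270 intronic parental nuclear clusters, with 802 parental and 754 *KRT19* KO reads in all. *EXT1*, a polymerase of heparan sulfate, had 34, of which 29 were in its first intron of 273 kb. *LIMCH1*, a regulator of actin stress fibres, and *RASAL2*, a GTPase-activating protein of RAS, had 24 sites each. *SMYD3*, a lysine methyltransferase, had 23. *FAM155A* (NALF1), a subunit of a sodium leak channel, *MECOM*, a zinc finger transcription factor, and *PRKCA*, a protein kinase C, had 22 each, and *KCNQ5*, a potassium channel, 21. The share of a gene's intronic clusters that were members ranged over the 10 genes with the most sites from 6.95% in *SMYD3* to 15.0% in *MECOM*, around the 7.68% of all intronic clusters. Every one of the 10 also had between 102 and 393 intronic clusters in each cytoplasmic library.

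Relative to intron length the order changed. *LIMCH1* had the most sites per 10 kb of intron among genes with at least 10 members, 1.56, followed by *FRMD6* with 1.35, *HMGA2* with 1.23, *PAWR*, a pro-apoptotic protein, with 1.13 and *EXT1* with 1.10. The largest shares of intronic clusters kept as members, among genes with at least 30 such clusters, were 26.7% (8 of 30) in *UBE2W*, a ubiquitin-conjugating enzyme, 23.3% (7 of 30) in *FAR1*, which makes fatty alcohols, 22.6% (7 of 31) in *RAB28*, and 22.0% (9 of 41) in both *AMBRA1*, an autophagy regulator, and *TRPS1*, a GATA-type repressor. The rule sets these shares, and with 30 to 41 clusters a gene they are extremes of a small count.

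The lists of splicing regulators were described by their counts. Among 25 genes of the hnRNP list with an intronic parental nuclear cluster, 19 had a member (76.0%), among 10 SR protein genes 5, and among 27 other splicing regulators 20 (74.1%), beside 41.8% of all 10180 genes with an intronic cluster. Counted by sites, members were 8.24% (5.83 to 11.5%) of the 364 intronic clusters of the hnRNP genes, 11.8% (6.52 to 20.3%) of the 85 of SR protein genes and 10.4% (8.28 to 13.0%) of the 654 of the other splicing regulators, beside 7.68% of all. *RBFOX2*, a regulator of alternative exons, had 17 members among 111 intronic clusters, and *MATR3*, a nuclear matrix protein, 7 among 57, with 479 parental and 348 *KRT19* KO reads. *SRSF4* had 2, the deeper with 190 and 87 reads. *TRA2B*, whose introns hold an ultraconserved poison exon, had 3 with 62 and 121 reads in all. *PTBP2*, the neuronal polypyrimidine tract binding protein, had 3 with 121 and 79. The single site of *TIA1*, a U-rich sequence binder, had 115 and 9 reads. Near a 3′ splice site were the single sites of *HNRNPH1* and of *HNRNPUL2*, the latter with 23 and 5 reads, and 1 of 2 sites each in *PTBP3* and *SF1*, the branch point binding protein.

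In the other lists, the share of sites was below the 7.68% of all introns in adhesion and matrix receptor genes. Growth signalling genes and chromatin enzymes were close to it. Clusters of 1 gene are not independent, and *PTPRM*, *CDH4* and *PTPRG* held 300, 249 and 195 of the 1351 clusters of the first list. No interval of a gene list therefore sets that list apart from all introns. Adhesion and matrix receptor genes had members in 13 of 28 genes and 5.92% (4.78 to 7.31%) of 1351 intronic clusters. *PTPRM*, a receptor phosphatase, had 20 of 300, *CDH4* 10 of 249 and *CD44*, the hyaluronan receptor, 8 of 48, with 146 parental and 143 *KRT19* KO reads. Growth signalling genes had members in 15 of 26 genes and 7.30% (5.75 to 9.23%) of 863 clusters. *EGFR*, the epidermal growth factor receptor, had 16 of 190 and *BRAF* 6 of 56, while *AXL*, a receptor kinase, had 5 of 33, of which 1 held 252 parental and 144 *KRT19* KO reads. Chromatin enzymes had members in 22 of 24 genes and 7.27% (5.69 to 9.25%) of 825 clusters. *EZH2*, the methyltransferase of Polycomb complex PRC2, had 5 of 52, 1 of them near a 3′ splice site, *CHD1*, a chromatin remodeller, 5 of 36 with 131 and 78 reads, and *KMT2E* 5 of 29 with 79 and 144.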

How the data were processed

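HNRNPK PAR-CLIP of the nuclear and cytoplasmic fractions of parental and *KRT19* KO MDA-MB-231 cells was analysed, with 1 library per condition. Per the study's methods, reads were demultiplexed with bcl2fastq and cutadapt, identical sequences were collapsed before adapters and molecular identifiers were removed, and clusters were called on hg19 with PARalyzer in PARpipe. The labels name hg38 and RNA-seq tools, but cluster sequences were equal to GRCh37 at their positions. The authors deposited unnormalized counts per cluster of reads, unique reads, conversion locations and T-to-C reads. The authors also deposited fraction columns of each cluster's reads, a mode score and a log10 conversion specificity, which entered no result.

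Reads in clusters numbered 3537577 in the parental nuclear, 3252800 in the *KRT19* KO nuclear, 5551612 in the parental cytoplasmic and 6216226 in the *KRT19* KO cytoplasmic library. RPM values are relative to these totals, and *KRT19* KO reads of a site are those of all overlapping clusters. Introns and exons came from GENCODE 44 on GRCh37, the smallest intron that holds a site being used and introns under 20 nt left out. Gene names are those in the files. Words were searched on the RNA strand of the cluster, and 5-nt words were compared with a pseudocount of 1. With 1 library per condition no p-values were computed. Shares have 95% Wilson intervals, their differences Newcombe intervals and ratios of reads exact binomial intervals.

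The genes named were the 10 with the most members, the 5 with the most per 10 kb of intron and the 5 with the largest share kept, besides genes of 6 lists. The sites named were the 10 with the highest RPM over both nuclei, 4 near a 3′ splice site, 4 with ACCTCCC or GCCTCCC and 3 at either end of the *KRT19* KO to parental ratio. For printed sequences, sites over 30 nt or on chromosome 8 were replaced by the next site. Some genes that these rules or lists hold are not reported here. The list genes named were picked for the text after their values were seen. The members, rules and lists were chosen with earlier results of these data known. Overlap, word search and placement were tested on simulated data. Python 3.11.15, numpy 2.4.6, pandas 2.3.3, scipy 1.17.1, pysam 0.24.0, numba 0.67.0, matplotlib 3.10.9 and bedtools 2.31.1 were used.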

Additional observations from a re-analysis of the deposited data

How the results depend on the processing

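The difference in TCCC share from sites of all 4 libraries, the 1 signed result recomputed, stayed negative under each alternative run. The other results recomputed were counts and shares of the members, and the *KRT19* KO to parental ratios, base composition and gene lists were not recomputed. Of 73 values, 47 stayed within the main interval, or within 1.5 times for counts, and 26 moved. At least 2 conversion locations left 4251 sites, with TCCC in 48.6% and 10.4 points below sites of all 4 libraries (-10.4), and 1 site per gene left 4258, with 45.4%, -18.4 points and 4.57% near a 3′ splice site. The TCCC share was 42.2% with at least 10 reads, 43.8% with at least 2 unique reads (difference -12.1 points) and 38.8% from the *KRT19* KO nuclear library (-11.6 points). Chosen after the data were seen, the share near a 3′ splice site was 2.71% in canonical introns and 2.55% at sites over no exon, and TCCC was in 38.8% of the overlapping *KRT19* KO clusters. The other moved values were of the share kept, the consensus, the mode position and the number of genes. No paired analysis was possible because each PAR-CLIP condition has 1 library. Depth limits the calls at the minimum of 5 reads: sites missing from a cytoplasmic library may be bound there, and 22.3% of the sites rest on 1 unique read.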
